A study of Mus musculus with 4 samples.

Results

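Mitochondrial ribosomal proteins are the nuclear-encoded proteins of the mitoribosome, the ribosome inside mitochondria. Their genes, whose symbols start with Mrpl (named for the large subunit) or Mrps (named for the small subunit), were taken as all rows of the deposited table with MRPL or MRPS followed by a digit. This gave 77 of 24452 rows, 48 MRPL and 29 MRPS. The cells were regulatory T cells (Tregs) of the liver of young mice. Tregs are a Foxp3-positive class of CD4 T cells that dampens immunity. The tested genotype was Altre-KO, in which the Treg long non-coding RNA Altre was knocked out, and it was set against Altre-WT, with 2 libraries of bulk RNA sequencing per genotype. All 4 libraries share tissue, cell type and library kit, and the question put to these genes is whether their transcript levels differ without Altre. The labels name no treatment, and do not give the strain, the design of the knockout allele, how the cells were sorted, or whether different or pooled mice gave the libraries. P-values therefore measure only the spread between these libraries, which may be technical.

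The mitoribosome translates the few proteins encoded by mitochondrial DNA, all of them subunits of the respiratory chain and the ATP synthase. Its RNAs come from mitochondrial DNA, while its proteins are made in the cytosol and imported, so that the organelle depends on nuclear genes for each of them. The small subunit decodes the messenger RNA, and the large subunit joins amino acids and holds the tunnel through which the new protein leaves towards the inner membrane. Some of these proteins have bacterial counterparts and others are found only in mitochondria. In T cells, mitochondrial translation is known to support respiration and cytokine production. The symbols do not always give the true place: Mrps30 and Mrps18a proteins sit in the large subunit of the mammalian mitoribosome, and Mrps36 encodes a subunit of the alpha-ketoglutarate dehydrogenase complex.

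Levels are in deposited CPM, reads scaled so that the listed genes of each library sum to the same total. Reads were estimated from the values, at 3266132 and 2361929 on listed genes in KO replicates 1 and 2 and at 1828773 and 2378954 in WT replicates 1 and 2. The share of all reads that lay on listed genes was 32.8% in KO replicate 1 (95% Wilson interval 32.76% to 32.81%, counting error only) and between 18.8% and 21.5% in the other libraries. Cd4 lay between 527 and 547 CPM, and Foxp3 was at 79.5 and 162 CPM in KO and at 160.4 and 140.5 CPM in WT. Summed hepatocyte markers lay at or below 1.69 CPM, with 3 of 5 listed at 0 throughout, while summed Kupffer and myeloid markers were at 240.4 and 129.6 CPM in KO and at 149 and 248 CPM in WT. Of those 6 markers Vsig4 was listed at 0 in every library and Clec4f in all but WT replicate 1, and Lyz2 was the most abundant. Summed markers of CD8 or NK cells reached at most 17.5 CPM, of B cells 13.2, of neutrophils 0.62, of stellate cells 5.47 and of erythroid cells 9.03 CPM. Summed endothelial markers lay between 175 and 220.3 CPM, nearly all of it Pecam1. Pecam1 was at 173.9 and 208.3 CPM in KO and at 172.2 and 215.2 CPM in WT. The other endothelial markers, Kdr and Stab2, reached at most 1.09 and 6.02 CPM. Cytosolic ribosomal protein genes that every cell uses, such as Rpl12, Rpl28, Rpl7a, Rps12, Rps28 and Rps29, were also listed at 0 in all 4 libraries, so a gene listed at 0 may not have been counted and does not show that a cell type was missing. Altre itself was not analysed here, and genotypes are those of the labels. In bulk RNA, fewer cells of a type and less RNA per cell cannot be told apart.

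The start regions of the family are shown first, as a feature of the genes that the choice of members did not use. RefSeq start regions in GRCm38.p6, from 250 bases before the start to 50 after it, could be matched for 68 of the 77 genes. Motifs of the transcription factors classically tied to nuclear genes of mitochondria were searched on both strands: CCGGAAG for ETS factors such as GABP, GCGC and TGCGC separated by any 1 base for NRF1 and AANATGGCG for YY1. The ETS letters stood in 25 of 68 (36.8%) against 12.9% of 17491 protein-coding genes and 9.93% of all 27025 genes in the table. Those of NRF1 stood in 13 (19.1%, against 7.17% and 5.19%) and those of YY1 in 10 (14.7%, against 3.64% and 2.76%). At least 1 of the 3 motifs was present in 41 start regions (60.3%), against 20.9% of protein-coding genes. The median start region of a member held 21 CG pairs, against 13 for protein-coding genes, and CG-rich motifs are more frequent in CG-rich sequence. A match describes letters and does not show binding.

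4 start regions are printed, from 250 bases before the start to 30 after it, 5′ to 3′ on the strand of the gene, with motif letters in capitals: Mrpl12 for NRF1, Mrpl52 for a pair of ETS matches, Mrps18a for ETS and YY1 together, and Mrps7, whose difference between genotypes had the smallest p of all members, as an example with none of the 3. They lie at chr11:120484387-120484666 (plus strand), chr14:54426659-54426938 (plus strand), chr17:46110754-46111033 (plus strand) and chr11:115603890-115604169 (plus strand).
Mrpl12: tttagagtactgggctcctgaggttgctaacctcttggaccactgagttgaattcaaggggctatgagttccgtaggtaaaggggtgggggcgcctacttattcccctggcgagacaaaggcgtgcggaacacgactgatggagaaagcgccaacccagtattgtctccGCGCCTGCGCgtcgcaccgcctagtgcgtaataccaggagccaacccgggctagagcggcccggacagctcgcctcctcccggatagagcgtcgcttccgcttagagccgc
Mrpl52: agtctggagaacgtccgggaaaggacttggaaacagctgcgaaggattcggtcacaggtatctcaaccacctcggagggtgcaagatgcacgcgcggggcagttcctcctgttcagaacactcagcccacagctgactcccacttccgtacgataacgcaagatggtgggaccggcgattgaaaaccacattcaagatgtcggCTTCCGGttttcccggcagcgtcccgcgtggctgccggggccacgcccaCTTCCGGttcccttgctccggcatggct
Mrps18a: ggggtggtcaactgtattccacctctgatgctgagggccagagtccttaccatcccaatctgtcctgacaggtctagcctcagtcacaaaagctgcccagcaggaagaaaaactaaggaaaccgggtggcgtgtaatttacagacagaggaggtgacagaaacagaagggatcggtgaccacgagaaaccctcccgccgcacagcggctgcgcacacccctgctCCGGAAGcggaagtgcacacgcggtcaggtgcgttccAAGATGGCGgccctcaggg
Mrps7: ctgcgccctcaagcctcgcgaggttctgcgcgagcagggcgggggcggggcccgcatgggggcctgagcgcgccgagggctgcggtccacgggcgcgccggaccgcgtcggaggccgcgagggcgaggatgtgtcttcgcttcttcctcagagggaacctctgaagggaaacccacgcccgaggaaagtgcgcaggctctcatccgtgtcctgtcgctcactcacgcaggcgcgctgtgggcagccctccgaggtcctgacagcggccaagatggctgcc
The NRF1 match of Mrpl12 begins 81 bases before the start. The ETS matches of Mrpl52 begin 47 bases before the start and at base 3 of the transcript, and both lie on the other strand. In Mrps18a the ETS match begins 26 bases before the start and the YY1 match at base 12 of the transcript. The 25 members with ETS letters had a median log2 fold change between genotypes of -0.055, and the 42 other tested members with a start region 0.038. For YY1 letters the medians were -0.061 with and 0.031 without, and for NRF1 letters -0.088 with and 0.063 without. These differences were not tested.

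No mitochondrial ribosomal protein transcript passed the test between Altre-KO and Altre-WT Tregs. The fit was limma on log2(CPM + 1) over 10486 genes that reached 4.22 CPM in at least 2 libraries, and all 48 MRPL and 28 of 29 MRPS rows entered it. Of these 76 members, 0 had a limma adjusted p under 0.05, where 0.0381% of all tested genes did (4 genes, none of them higher in KO), and each member's adjusted p was 0.999. With limma-voom on estimated reads the count was also 0. In the main limma fit, at an unadjusted p under 0.05, 3 members were higher in KO and 0 lower, against 1.44% and 2.22% of all tested genes. The authors' deposited table calls 3 of its 24452 rows (0.0123%) and 0 members, and gives every member an adjusted p of 1, with a lowest p of 0.265. The log2 fold change, KO minus WT, was above 0 for 39 members, 51.3% against 47.9% of all tested genes, and the count ran from 27 without KO replicate 1 to 54 without KO replicate 2.

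The precision of 2 libraries per genotype sets what could have been seen. The 95% limma interval lay within -1 and 1 on the log2 scale for 49 of the 76 members, so that a change as large as a doubling on that scale lay outside it. It reached past 1 for 14 others, past -1 for 11 and past both for 2. Standard errors ran from 0.20 to 0.62. A tested member had a median of 104.5 and 58.5 estimated reads in KO replicates 1 and 2, and of 49.5 and 61.0 in WT replicates 1 and 2. Counting error alone is then 9.78% and 13.1% of the KO value and 14.2% and 12.8% of the WT value.

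**Figure D1:**
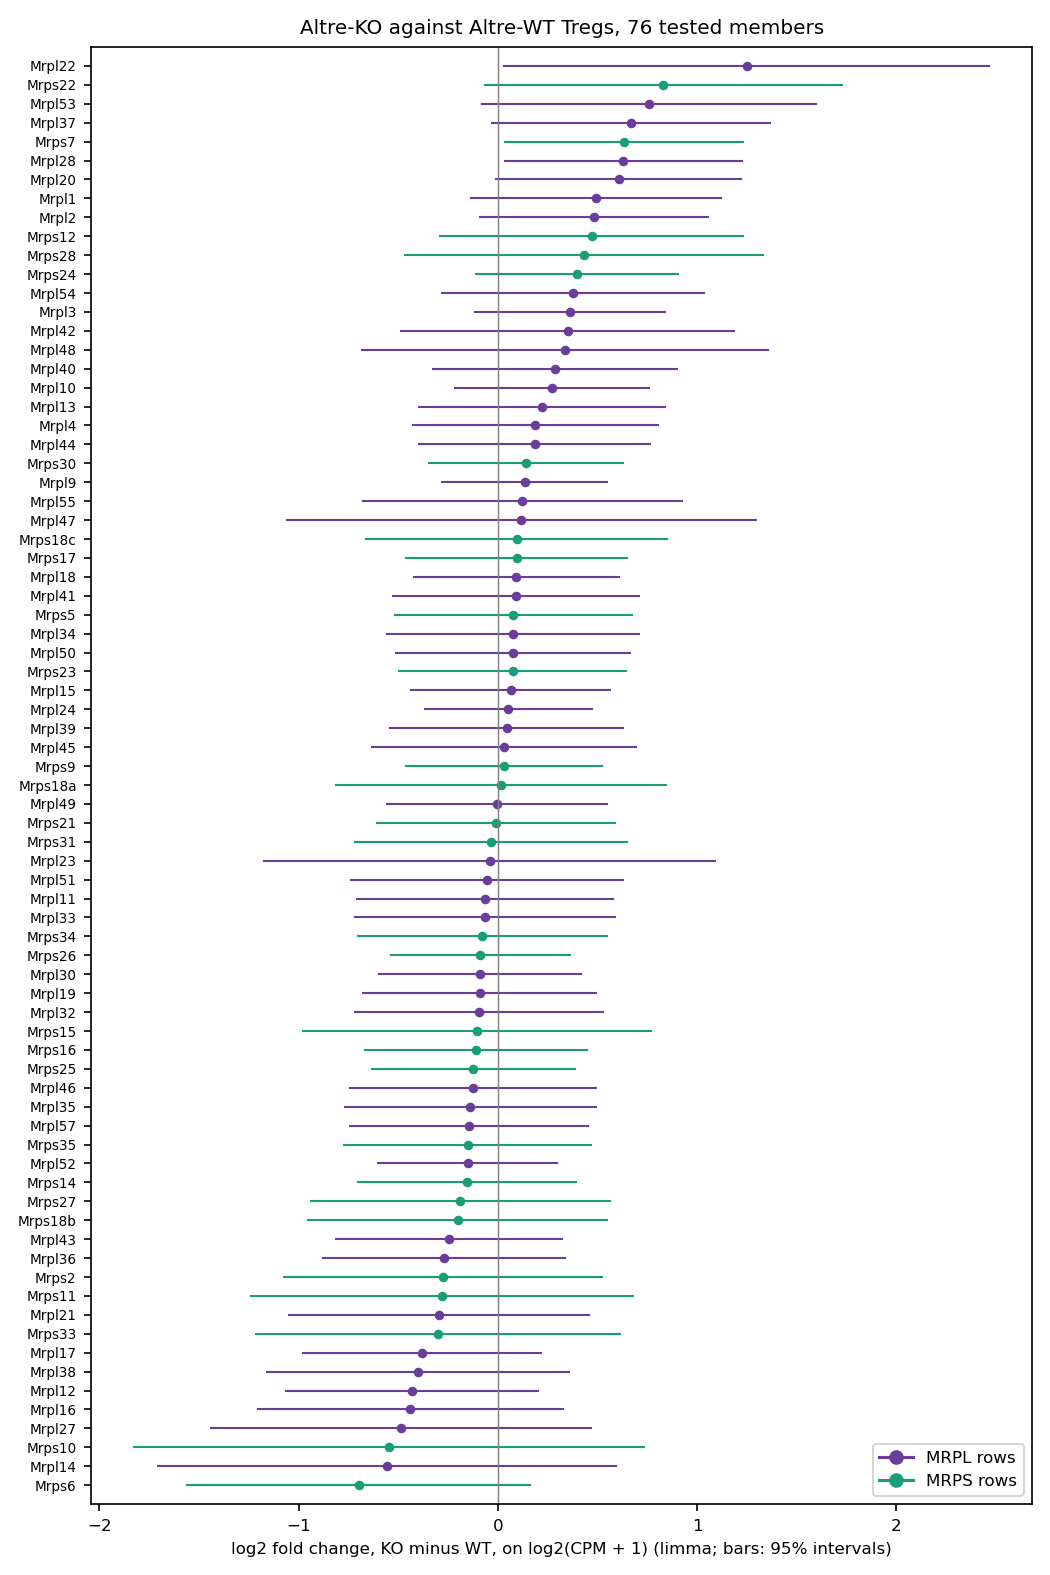
Log2 fold change of each of the 76 tested members, KO minus WT on the log2(CPM + 1) scale, with 95% limma intervals; colour gives the symbol class, MRPL or MRPS. MRPL rows run from -0.56 for Mrpl14 to 1.25 for Mrpl22, and MRPS rows from -0.70 for Mrps6 to 0.83 for Mrps22.

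Among the MRPL rows, 10 of 48 had both KO libraries above both WT libraries (20.8%, against 14.7% of all tested genes), and 5 had both below (10.4%, against 16.1%). Mrpl28, a protein with a bacterial counterpart, was at 47.8 and 31.8 CPM in KO, against 24.1 and 25.6 CPM in WT. Mrpl20, also of bacterial ancestry, was at 46.5 and 29.2 CPM in KO, against 25.2 and 22.7 CPM in WT. In both genes the WT libraries lay close together and KO replicate 1 stood well above KO replicate 2. The log2 fold changes were 0.63 for Mrpl28 (SE 0.29, limma unadjusted p = 0.0394) and 0.61 for Mrpl20 (SE 0.30, limma unadjusted p = 0.0529). Without KO replicate 1 they were 0.34 and 0.28.

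Mrpl37, a protein found only in mitochondrial ribosomes, was at 22.4 and 26.7 CPM in KO, against 15.3 and 14.7 CPM in WT. Here KO replicate 2 was the higher of the KO libraries, and the log2 fold change of 0.67 (SE 0.34) stayed between 0.54 and 0.79 when any 1 library was left out. Mrpl22, whose bacterial counterpart lines the exit tunnel, was at 8.27 and 8.04 CPM in KO, against 1.64 and 4.62 CPM in WT. The WT values rest on 3 and 11 estimated reads, and the KO values on 27 and 19. Its log2 fold change of 1.25 was the largest of the 76 in size, with a 95% limma interval from 0.031 to 2.47, and it was 0.70 without WT replicate 1. Of the other 6 with both KO libraries higher, Mrpl53 had the largest log2 fold change, 0.76, from 17.5 and 14.8 CPM in KO and 8.20 and 10.1 CPM in WT.

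Of the 5 MRPL rows with both KO libraries lower, 4 had log2 fold changes between -0.49 and -0.25. Mrpl17 was at 26.3 and 22.9 CPM in KO, against 33.9 and 30.7 CPM in WT, a log2 fold change of -0.38 (SE 0.29). Mrpl27, whose bacterial counterpart reaches towards the peptidyl transferase centre, was at 7.04 and 7.20 CPM in KO, against 9.84 and 10.9 CPM in WT. Mrpl43 was at 30.6 and 30.9 CPM in KO, against 42.7 and 31.5 CPM in WT, so that only WT replicate 1 stood apart. Mrpl21 was at 15 and 13.6 CPM in KO, against 19.7 and 16.0 CPM in WT. Unadjusted limma p-values of these 4 lay between 0.199 and 0.424. The remaining MRPL row with both KO libraries lower, Mrpl35, had a log2 fold change of -0.14 (SE 0.30).

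Mrpl12, the stalk protein that also binds the mitochondrial RNA polymerase, was at 47.2 and 22.9 CPM in KO, against 54.7 and 36.6 CPM in WT. The libraries of each genotype differed by more than the genotypes did, and the log2 fold change of -0.43 became 0.074 without KO replicate 2. Mrpl44, a protein with a ribonuclease III-like fold, was at 39.5 and 30.1 CPM in KO and at 33.4 and 27.3 CPM in WT. Mrpl45, which lies at the tunnel exit and helps to hold the mitoribosome to the inner membrane, was at 32.5 and 20.8 CPM in KO and at 30.6 and 21.0 CPM in WT. Mrpl57 was at 34.0 and 25.4 CPM in KO and at 38.3 and 27.7 CPM in WT. In each of these 3 genes the genotypes overlapped, and replicate 1 was the higher library of both genotypes.

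**Figure D2:**
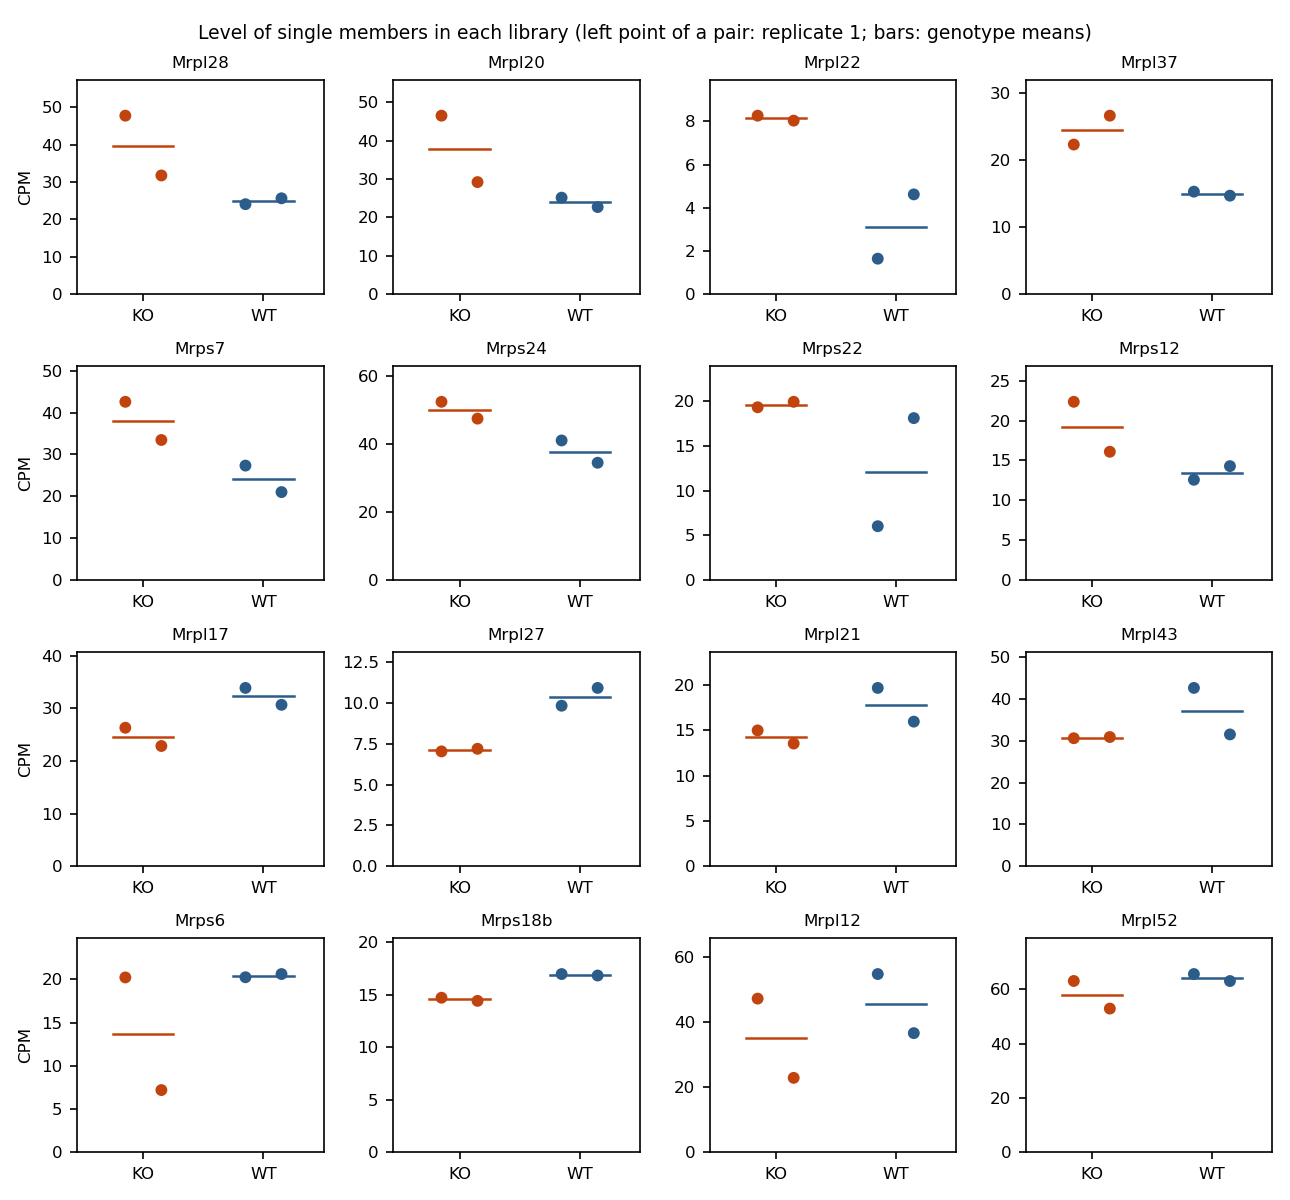
Level in CPM of 16 members in each library, KO left and WT right, with replicate 1 as the left point of each pair and a bar at the genotype mean (n = 2); each panel has its own axis from 0. The first 8 panels hold members with both KO libraries above both WT libraries, the next 6 those with both below, and Mrpl12 and Mrpl52 overlap.

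Among the MRPS rows, 6 of 28 tested had both KO libraries above both WT libraries (21.4%, against 14.7% of all tested genes) and 2 had both below (7.14%, against 16.1%). Without Mrps30 and Mrps18a, which belong to the large subunit, 5 of 26 had both above (19.2%). Mrps7, counterpart of a bacterial protein that organises the head of the small subunit, was at 42.6 and 33.5 CPM in KO, against 27.3 and 21.0 CPM in WT. Its means were 38.0 ± 6.44 CPM in KO and 24.2 ± 4.47 CPM in WT (SD, n = 2 each). The log2 fold change was 0.63 (SE 0.29, limma unadjusted p = 0.0384), and it stayed between 0.45 and 0.81 when any 1 library was left out. Exons of Mrps7 (chromosome 11, 115603925 to 115608036 in GRCm38, GENCODE M21) overlap those of Gga3 and Mif4gd on the opposite strand.

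Mrps24 was at 52.4 and 47.4 CPM in KO, against 41.0 and 34.5 CPM in WT, and Mrps12, the counterpart of a bacterial protein of the decoding centre, at 22.4 and 16.1 CPM in KO, against 12.6 and 14.3 CPM in WT. Log2 fold changes were 0.40 (SE 0.24) and 0.47 (SE 0.37). Mrps22, found only in mitochondria and mutated in human respiratory chain disease, was at 19.3 and 19.9 CPM in KO, against 6.02 and 18.1 CPM in WT. WT replicate 1 alone was low, with 11 estimated reads, and the log2 fold change of 0.83 was 0.11 without it.

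Mrps6 had the most negative log2 fold change of the family, -0.70 (SE 0.41, limma unadjusted p = 0.106). It was at 20.2 and 7.20 CPM in KO, against 20.2 and 20.6 CPM in WT. KO replicate 1 lay within 0.02 CPM of WT replicate 1, so the value rests on KO replicate 2 and was -0.014 without it. Annotated exons of Mrps6 also overlap those of Slc5a3 on the same strand. Mrps34, a stabilising protein of the small subunit, was at 23.3 and 24.98 CPM in KO and at 26.3 and 24.8 CPM in WT, with a log2 fold change of -0.079.

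The Mrps18 genes encode 3 related proteins that occupy different places. Mrps18c and Mrps18b proteins belong to the small subunit and Mrps18a to the large one. Mrps18a was at 17.8 and 14.0 CPM in KO and at 10.4 and 23.1 CPM in WT. Mrps18b was at 14.7 and 14.4 CPM in KO and at 17.0 and 16.8 CPM in WT. Mrps18c was at 29.1 and 16.9 CPM in KO and at 14.8 and 29 CPM in WT. Only Mrps18b had genotypes that did not overlap, with a log2 fold change of -0.20 (95% limma interval -0.95 to 0.55). For Mrps18a and Mrps18c, WT replicate 1 minus WT replicate 2 was -1.08 and -0.93 on the log2 scale. Mrps30, a large-subunit protein despite its name, was at 49.9 and 48.3 CPM in KO and at 41.6 and 47.5 CPM in WT, with a log2 fold change of 0.14. The only member under the filter was Mrps36, which is also the one that is not a mitoribosomal protein. It was at 3.37 and 1.27 CPM in KO and at 0.55 and 2.10 CPM in WT, from 1 to 11 estimated reads. Mrps36 has near-identical processed pseudogenes, such as Mrps36-ps1 (99.3% identity over 306 bases), so its value is uncertain. Why it was low was not tested. The members with the lowest mean levels inside the filter were Mrps10, at 4.90 and 2.12 CPM in KO and 4.37 and 6.31 CPM in WT, and Mrpl47, at 3.98 and 7.20 CPM in KO and 4.37 and 5.46 CPM in WT.

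Large- and small-subunit transcripts were compared as sums and as medians. MRPL rows summed to 1641 and 1285 CPM in KO and to 1440.4 and 1332 CPM in WT. MRPS rows summed to 832 and 689 CPM in KO and to 723 and 767 CPM in WT. For both subunits KO replicate 1 was the highest library and KO replicate 2 the lowest, so the WT libraries lay between the KO libraries. The ratio of the MRPL sum to the MRPS sum was 1.97 and 1.87 in KO and 1.99 and 1.74 in WT. On the log2 scale it averaged 0.94 ± 0.056 in KO and 0.89 ± 0.14 in WT (SD, n = 2 each), a difference of 0.045 that is smaller than the spread within WT. Leaving out 1 library moved it between -0.054 (without WT replicate 2, a turned sign) and 0.14 (without WT replicate 1), and it was 0.0055 without KO replicate 1. In a second split, Mrps30 and Mrps18a were moved to the large subunit and Mrps36 was left out. The ratio was then 2.25 and 2.16 in KO and 2.23 and 2.02 in WT. Mitoribosomal proteins whose rows carry other names, such as Dap3 and Mrpl58, were in neither split. Neither ratio therefore covers the whole mitoribosome.

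**Figure D3:**
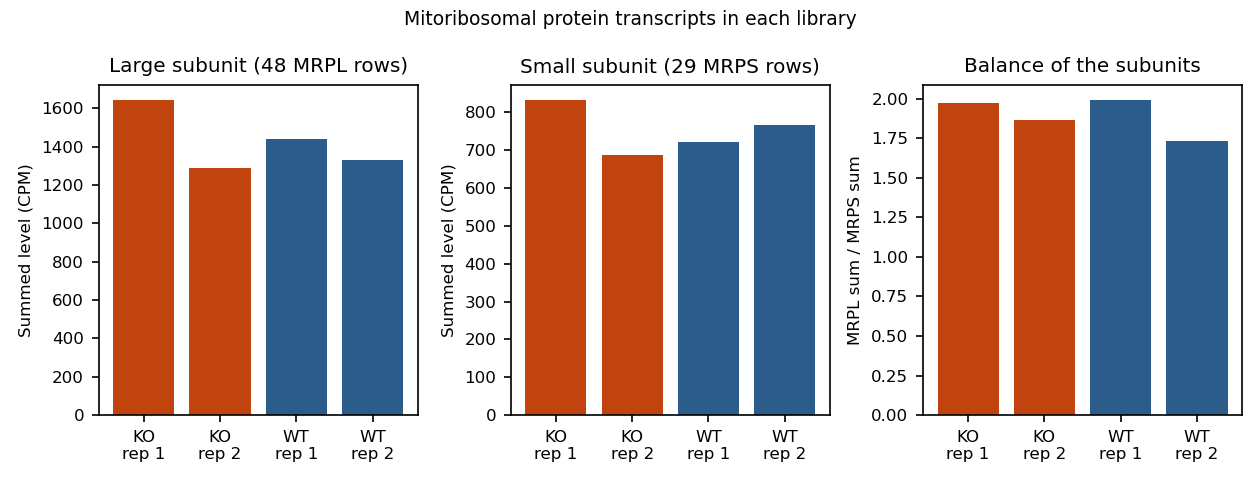
Summed CPM of the 48 MRPL rows and of the 29 MRPS rows and their ratio, for KO replicates 1 and 2 and WT replicates 1 and 2. The MRPL sum runs from 1285 CPM in KO replicate 2 to 1641 CPM in KO replicate 1, and the ratio from 1.74 to 1.99.

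The median log2 fold change was 0.058 over the 48 MRPL rows and -0.057 over the 28 tested MRPS rows, beside -0.013 over all tested genes. Their difference of 0.11 stands beside a replicate SD of 0.096 for this quantity, and it was 0.019 without WT replicate 2 and 0.045 without KO replicate 1. Without KO replicate 1 the medians were -0.097 and -0.14, and without KO replicate 2 they were 0.26 and 0.16, so both shifted in the same direction with the library left out. MRPL rows were above 0 in 27 of 48 and MRPS rows in 12 of 28. The 46 members classed as having a bacterial counterpart had a median log2 fold change of 0.042 and the 30 classed as found only in mitochondria 0.0053. Mrps18a and Mrps18b were classed as found only in mitochondria, although the related Mrps18c was classed as having a bacterial counterpart. Among members classed as found only in mitochondria, the 20 large-subunit genes had a median of 0.060, with 13 above 0. The 10 small-subunit genes of that class had a median of -0.11, with 2 above 0 (Mrps22 and Mrps23). Among those with a bacterial counterpart, the 30 large-subunit genes had a median of 0.058, with 16 above 0, and the 16 small-subunit genes 0.011, with 8 above 0. Both splits place proteins by structure, and neither was tested.

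Members of both subunits differed in the same direction between the KO libraries. KO replicate 1 was above KO replicate 2 for 62 of 76 members (81.6%), against 56.0% of all tested genes, with a median log2 difference of 0.31, against 0.057. This held for 41 of 48 MRPL rows and 21 of 28 MRPS rows. KO replicate 1 was the highest of the 4 libraries for 38 members (50%, against 30.7% of all tested genes), and KO replicate 2 the lowest for 33 (43.4%, against 27.7%). The WT libraries split evenly, with replicate 1 above replicate 2 for 39 members and below for 37. For 59 of 76 members the larger of the 2 within-genotype differences exceeded the fold change between genotypes in size. That sets the larger of 2 single-library differences against a difference of means, and its share over all tested genes was not computed. Median sizes for members were 0.33 between KO libraries, 0.26 between WT libraries and 0.15 between genotypes. Over all tested genes they were 0.27, 0.24 and 0.17. The sum over all 77 rows averaged 2224 ± 353 CPM in KO and 2131 ± 45.4 CPM in WT (SD, n = 2 each).

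**Figure D4:**
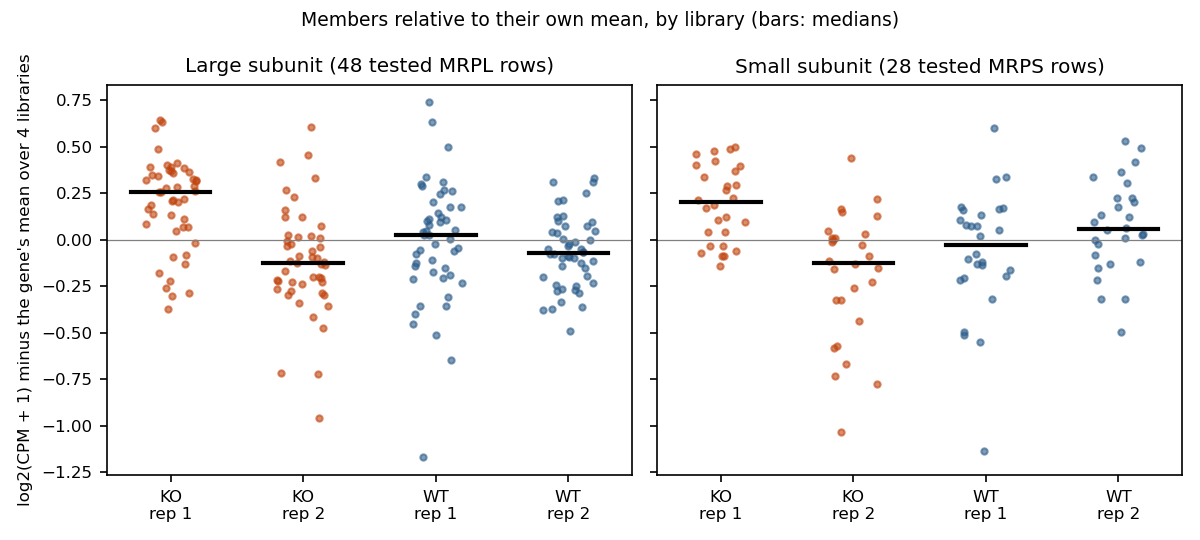
Each point is a tested member, placed by its log2(CPM + 1) in a library minus its own mean over the 4 libraries; KO libraries stand left of WT libraries and black bars are medians. MRPL medians are 0.26 and -0.12 in KO replicates 1 and 2 and 0.026 and -0.072 in WT replicates 1 and 2, and MRPS medians are 0.20, -0.12, -0.029 and 0.058 in the same order.

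The difference between KO libraries is set here beside that of other gene lists. KO replicate 1 was above KO replicate 2 for 32 of 33 nuclear subunits of respiratory complex I (median log2 difference 0.34) and for 53 of 64 cytosolic ribosomal proteins (0.27). It was above in 11 of 17 mitochondrial translation factors (0.079) and in 12 of 26 genes of mitoribosome assembly and rRNA modification (-0.012). It was above in 14 of 20 tRNA synthetase genes and 5 of 9 genes of mitochondrial DNA transcription. Whether these lists differ was not tested. KO replicate 1 also had the largest share of reads on listed genes. The Lars2 row, named for a mitochondrial leucyl-tRNA synthetase gene, stood at 2542 CPM in KO replicate 2. It was at 189 CPM in KO replicate 1 and at 206 and 283 CPM in WT. An alternative scaling left this row out of the library totals, together with Rpph1, Rmrp and Rn45s. Whether its reads came from the synthetase mRNA was not tested. The myeloid marker sum was also lowest in KO replicate 2, but highest in WT replicate 2. Among Treg and T cell markers, Foxp3, Cd3e, Il2ra and Ikzf2 were lowest in KO replicate 1. Cd4 was lowest in WT replicate 2 and Ctla4 in KO replicate 2. The part of these in the result was not tested.

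Genes that work with the mitoribosome gave 0 calls between genotypes in every list. Of 5 mitoribosomal proteins that carry other names, the members with the smallest p were Chchd1, at 33.4 and 24.6 CPM in KO and 22.4 and 21.4 CPM in WT, and Dap3, at 89.4 and 100.8 CPM in KO and 94.1 and 75.2 CPM in WT. Mrpl58, a release factor of the large subunit that is listed under its older symbol Ict1, was at 26.0 and 18.2 CPM in KO and 35.5 and 24.4 CPM in WT. Among 17 translation factors, Tufm, which brings aminoacyl-tRNA to the mitoribosome, was at 10.7 and 8.47 CPM in KO and 13.7 and 16.0 CPM in WT (log2 fold change -0.58, SE 0.41). The release factor gene Mtrf1 was at 3.37 and 2.96 CPM in KO and 4.37 and 8.41 CPM in WT. Both of its KO values lay under the 4.22 CPM filter, so Mtrf1 entered the test only through the WT libraries. The list had a median log2 fold change of -0.12, with 7 of 17 above 0.

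Of 26 genes of assembly and rRNA modification, 17 had a log2 fold change above 0, with a median of 0.12. Both KO libraries lay above both WT libraries for 8 (30.8%, against 14.7% of all tested genes) and below for 3 (11.5%, against 16.1%). Shares above and below were 23.5% each for translation factors, 15.2% and 3.03% for complex I and 14.1% and 9.38% for cytosolic ribosomal proteins. Rbfa, which binds the small subunit as it matures, was at 62.0 and 59.1 CPM in KO and 39.9 and 51.1 CPM in WT, and the methyltransferase gene Trmt2b at 62.8 and 61.0 CPM in KO and 44.8 and 49.2 CPM in WT. Their log2 fold changes were 0.41 (SE 0.23) and 0.39 (SE 0.22). Among 20 tRNA synthetase and amidotransferase genes, 14 had a log2 fold change above 0, with a median of 0.083. Lars2 had the smallest limma p of this list, with a log2 fold change of 1.52 (SE 0.58). Its genotypes overlapped, and only KO replicate 2 stood far above the other libraries, in reads whose origin was not tested. Gatb was at 11.3 and 6.77 CPM in KO and 15.3 and 19.3 CPM in WT (log2 fold change -0.90, SE 0.41). Of 9 genes of mitochondrial DNA transcription and its nuclear regulators, 8 had a log2 fold change above 0, with a median of 0.11. Tfb2m, a factor for promoter opening, was at 20.2 and 25.4 CPM in KO and 12.03 and 17.7 CPM in WT. Mterf1b was at 4.69 and 9.21 CPM in KO and 3.5 and 4.36 CPM in WT. For comparison, complex I had 24 of 33 members above 0 and a median of 0.14, and cytosolic ribosomal proteins had 37 of 64 and 0.034. The smallest unadjusted p-values in these lists, none of which passed adjustment, were those of Ndufb5 (log2 fold change 0.43) and Ndufs4 (0.40), and of Rpl26 (-1.53) and Rpl6 (-0.46).

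Levels were compared between members per kb of transcript, using the principal transcript in GENCODE M21. Mrpl52, a protein found only in mitochondria, stood first at 146 CPM per kb, from 61.2 CPM on a transcript of 418 bases. It was followed by Mrps21 at 59.4 CPM per kb, Mrpl24 at 59.3 CPM per kb and Mrpl33 at 50.2 CPM per kb, whose ranges over the libraries overlapped. Mrpl52, Mrps21 and Mrpl24 were also among the first 4 when the length of all exons of a gene was used, whereas Mrpl33 then ranked 72 of 77. After Mrps21, the small-subunit genes with the highest levels were Mrps24 at 44.0 CPM per kb and Mrps18c at 35.2 CPM per kb. The lowest tested members were Mrpl47 at 1.56 CPM per kb and Mrpl48 at 2.01 CPM per kb. The median was 17.5 CPM per kb for MRPL rows and 14.0 CPM per kb for MRPS rows, or 10.8 and 7.71 with the length of all exons. Between the highest and the lowest tested member lay a 93.7-fold range of CPM per kb. Mrpl52 itself was at 63.1 and 52.9 CPM in KO and at 65.6 and 63.1 CPM in WT, Mrps21 at 31.5 and 26.3 CPM in KO and 31.7 and 26.5 CPM in WT, and Mrpl24 at 90.1 and 72.1 CPM in KO and 81.6 and 74.0 CPM in WT. Mrpl33 was at 20.2 and 26.7 CPM in KO and 21.3 and 27.7 CPM in WT. In all 4 genes the genotypes overlapped.

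**Figure D5:**
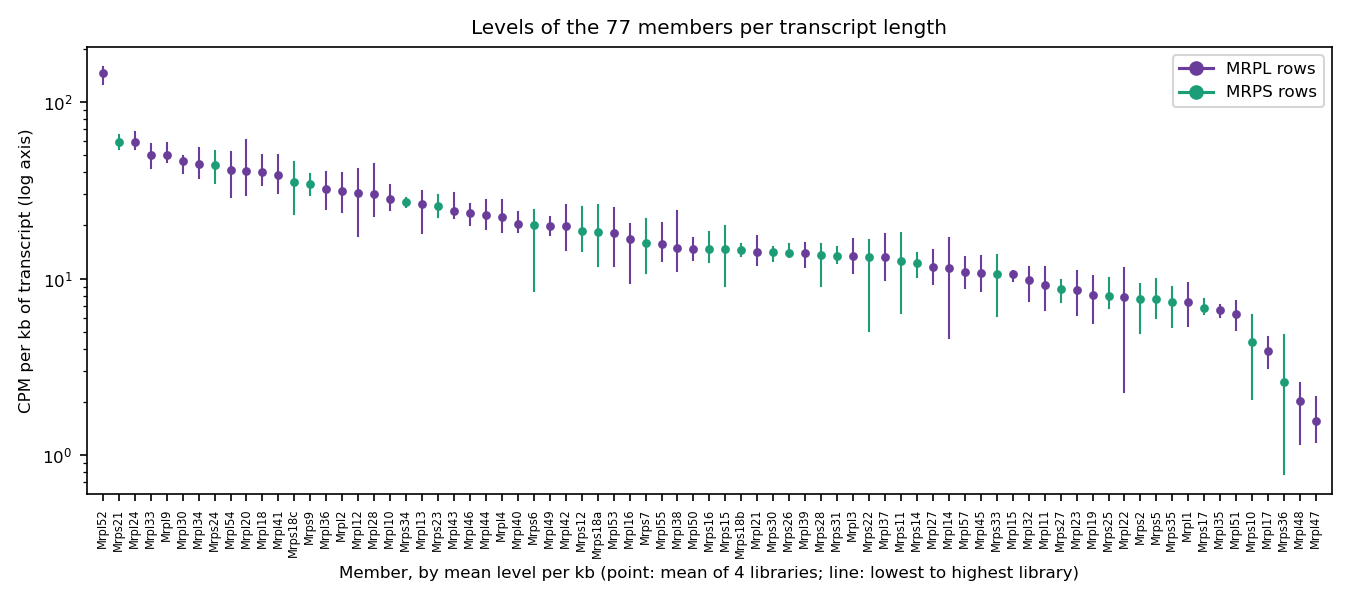
Level of all 77 members in CPM per kb of principal transcript on a log axis, ordered by the mean of the 4 libraries (point), with a line from the lowest to the highest library; colour gives the symbol class. Mrpl52 leads at 146 CPM per kb and Mrpl47 is last at 1.56 CPM per kb.

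The genes are scattered over 17 chromosomes, with 10 on chromosome 11 and 8 on chromosome 17. A protein-coding neighbour on the opposite strand started within 1000 bases upstream of 18 members (23.4%), against 6.79% of 21938 protein-coding genes. Examples are Mrps12 and the seryl-tRNA synthetase gene Sars2, Mrpl32 and the proteasome gene Psma2, and Mrpl49 and Fau, which encodes a cytosolic ribosomal protein. Mrpl46 and Mrps11, a large- and a small-subunit gene, overlap on opposite strands of chromosome 7. Mrpl46 was at 28.2 and 22.9 CPM in KO and 30.1 and 25.6 CPM in WT, and Mrps11 at 17.8 and 6.77 CPM in KO and 19.1 and 9.67 CPM in WT, both with genotypes that overlapped.

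Such overlaps bear on how single values are read. Annotated exons of 27 members overlap a gene on the opposite strand, and the sources used here do not say that counting used strand. Among them are Mrpl12, Mrpl14, Mrpl21, Mrpl24, Mrpl27, Mrpl43, Mrpl44, Mrps18b, Mrps30 and Mrps34, and also Mrpl47 and Mrpl48, the lowest tested members per kb. Exons of 8 members overlap a gene on the same strand, which a strand setting would not separate. These are Mrpl3, Mrpl33, Mrpl51, Mrpl53, Mrps6, Mrps18c, Mrps24 and Mrps34. A transcript elsewhere shares at least 95% identity over 200 bases with 21 members, in most cases a processed pseudogene. Mrpl21, Mrpl22, Mrpl27, Mrpl48, Mrps18b, Mrps18c, Mrps21 and Mrps36 are among these members. Separate values of these genes are uncertain. Estimated reads were whole within 0.05 of a read in every library for 73 of 77 members and fractional for Mrpl19, Mrpl24, Mrpl41 and Mrps25. The widest gaps between libraries of a genotype were those of Mrps6 and Mrpl14 in KO, at 1.37 and 1.36 on the log2 scale, and of Mrps22 and Mrpl22 in WT, where WT replicate 1 minus WT replicate 2 was -1.44 and -1.09. Mrpl14 was at 9.19 and 2.96 CPM in KO and at 10.9 and 6.31 CPM in WT.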

How the data were processed

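Treg RNA was purified on micro columns and sequenced from SMARTER mRNA libraries, per the labels' protocols. STAR, cutadapt and DESeq2 were used with build mm10 (GRCm38), per the submitters' processing notes. Not given in the sources used here are their roles and versions, the counter and the strand setting. The authors deposited CPM, per the file headers, scaled over the listed genes, and RPM, read as such from the deposited values, with 0.0001 where a gene had no read. The deposited table also holds the authors' log2 ratio of genotype means and p-values of an unnamed test. The smallest step of the RPM values gave estimated reads. Between 93.3% and 94.1% of values came out whole within 0.02 of a read, so they were not treated as counts. The libraries of a genotype differed beyond sampling noise (ratios of chi-square to its degrees of freedom were 9.53 in KO and 3.36 in WT).

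The planned test was used: limma 3.58.1 (R 4.3.3) with trend on log2(CPM + 1), group as the only term, over genes with 10 estimated reads at the median depth (4.22 CPM) in 2 libraries. Adjusted p-values (Benjamini-Hochberg, over all tested genes) were held to 0.05. With 2 residual and 20.8 prior degrees of freedom, errors draw largely on the trend over all genes. The script was tested on simulated data. Named genes were any member past the threshold, the 4 with the smallest p in each subunit and direction among genotypes that did not overlap, the 3 highest per kb in each, 12 chosen for structure or role, the 2 per genotype with the largest gap between libraries, any member below the filter, and 2 per other list. Single examples outside this rule were chosen after their values were seen. Members and lists were chosen with earlier results of these data known. All 77 symbols matched GENCODE M21, and blastn 2.17.0 searched for near-identical transcripts. Alternatives covered the test, scaling, filter, pseudocount, replicate block, left-out libraries and subunit membership. The length measure and the count of positive fold changes under each setting were added after seeing the data. Figures used matplotlib 3.10.9.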

Additional observations from a re-analysis of the deposited data

How the results depend on the processing

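The count of members past the threshold was 0 under all 15 alternatives, so the call did not depend on a setting. Over all tested genes the count of 4 ran from 6 to 16 when a library was left out, and was 2 with the smaller pseudocount and 6 with the replicate block. The median log2 fold change ranged from -0.097 to 0.26 for MRPL rows and from -0.14 to 0.16 for MRPS rows when 1 library was left out, the highest in both without KO replicate 2; with members of at least 20 CPM the MRPS median was 0.011. Of 27 named members with a test, 10 changed sign when a library was left out. Their ranges were -0.94 to 0.074 for Mrpl12, -1.24 to 0.13 for Mrpl14, -0.11 to 0.21 for Mrpl24, -0.26 to 0.13 for Mrpl33, -0.0062 to 0.38 for Mrpl44, -0.28 to 0.34 for Mrpl45, -0.37 to 0.081 for Mrpl57, -0.53 to 0.56 for Mrps18a, -0.37 to 0.56 for Mrps18c and -0.14 to 0.12 for Mrps21. Under other settings, Mrps18a was -0.031 with limma-voom and -0.0017 with the larger pseudocount, and Mrps21 was 0.020 with limma-voom, 0.019 with median-of-ratios size factors, 0.0069 with upper-quartile scaling and 0.0066 with totals without 4 abundant rows. The difference between genotypes in the log2 ratio of MRPL to MRPS sums ran from -0.054 to 0.14 when a library was left out, and that between the medians from 0.019 to 0.13. The cause was not tested. Same-numbered libraries did not deviate together (correlation -0.010 over tested genes), so replicate numbers were taken as names only. Depth limits the members with few reads, such as Mrpl22 and Mrps10.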
